A study of Mus musculus with 9 samples.

Results

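GATA factors are zinc finger proteins that bind DNA at the GATA core sequence, and 4 rows of the deposited gene table are described here. They are mouse Gata1, Gata2 and Gata3 and the human GATA1 row, which counts RNA of the introduced cDNA. They were taken by their symbols from 27999 rows, and all 4 passed the low-count filter that left 9979 tested genes. RNA was measured in G1E cells, a mouse erythroid progenitor line derived from embryonic stem cells whose Gata1 gene was disrupted. The cells were grown with stem cell factor (SCF) and erythropoietin (EPO) and were infected by spinning with virus made in 293T cells. The virus carried a GATA1 mutant, wildtype GATA1 or the empty HMD vector, with 3 libraries in each group. The sources used here do not give the mutation, the time after infection, any selection of infected cells or the share of cells that carried the transgene. In bulk RNA, a lower level in every cell and a loss in only some of the cells cannot be told apart.

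In erythroid development GATA2 acts first, in progenitors and mast cells, where it maintains growth and the expression of Kit. GATA1 then takes over many of the same chromatin sites, turns on the globin and heme genes and turns Gata2 off, an exchange known as the GATA switch. GATA3 is best known from T cells and type 2 innate lymphoid cells and is also expressed in blood stem cells. The comparisons ask how the introduced forms of GATA1 changed these genes.

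Both genes that fell with wildtype GATA1 have their annotated promoters in RefSeq on GRCm38.p6, from 250 bases before to 50 bases after the start, and these are shown because the 2 genes moved together. Gata2 (chromosome 6, 88193891 to 88207032, plus strand) has 2 alternative first exons, of which the distal one is known for use in blood cells. Gata3 lies on the minus strand of chromosome 2, 9857078 to 9890034. Capitals mark a GATA motif, searched on either strand as the letters GATA with A or T before them and A or G after them.
Gata2 distal start, chr6:88193641-88193940, plus strand: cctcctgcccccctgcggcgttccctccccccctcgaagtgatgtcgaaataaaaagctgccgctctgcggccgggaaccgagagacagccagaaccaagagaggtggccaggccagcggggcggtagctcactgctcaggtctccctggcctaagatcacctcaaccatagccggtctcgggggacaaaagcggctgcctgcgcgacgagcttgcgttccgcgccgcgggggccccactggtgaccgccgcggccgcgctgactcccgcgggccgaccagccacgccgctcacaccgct
Gata2 proximal start, chr6:88198414-88198713, plus strand: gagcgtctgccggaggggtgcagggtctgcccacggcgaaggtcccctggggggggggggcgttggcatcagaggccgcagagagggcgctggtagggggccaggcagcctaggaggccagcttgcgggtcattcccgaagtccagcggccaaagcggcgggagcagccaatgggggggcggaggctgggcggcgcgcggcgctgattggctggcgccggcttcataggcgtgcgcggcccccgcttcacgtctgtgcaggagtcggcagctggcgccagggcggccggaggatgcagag
Gata3, chr2:9878551-9878850, minus strand: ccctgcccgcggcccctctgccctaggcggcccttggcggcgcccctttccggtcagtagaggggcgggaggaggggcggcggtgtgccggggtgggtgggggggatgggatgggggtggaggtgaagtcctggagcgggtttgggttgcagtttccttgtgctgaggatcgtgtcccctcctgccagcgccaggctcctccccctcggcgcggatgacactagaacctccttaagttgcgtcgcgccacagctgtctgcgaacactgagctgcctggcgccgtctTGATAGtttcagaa
The Gata3 window held 1 motif, TGATAG on the gene's own strand at 9878559 to 9878564, and neither Gata2 window held one. Of 32851 promoter windows of 300 bases, 29.8% held at least 1 such motif. The Gata2 windows contained 32 and 29 CG dinucleotides and the Gata3 window 22, against a median of 7 over all windows. A match is a description of the letters, not of binding, and the elements through which GATA1 is known to act on Gata2 lie outside these windows.

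Library totals ranged from 11364358 to 17289307 counts. Of 10 erythroid progenitor markers 9 were detected in every group, and the exception, Ptprc (the leukocyte antigen CD45), had no count. The summed level of 10 markers of B cells, macrophages, granulocytes, fibroblasts and endothelium was 1.36 to 1.86 CPM (counts adjusted to equal library size) with the mutant, 0.439 to 1.12 CPM with the wildtype, against 0.586 to 1.22 CPM with the empty vector, and 5 of them were at 0 throughout. Mpo, a granulocyte and early myeloid enzyme, was the only tested one. Mpo stood at 0.937 ± 0.178 CPM in mutant libraries (47 counts), against 0.136 ± 0.165 CPM (5 counts) in wildtype libraries. The empty vector libraries had 0.178 ± 0.129 CPM and 8 counts (SD, n = 3 in each group). Only the mutant libraries all reached the low-count filter's limit of 0.714 CPM. The call of mutant over wildtype (adjusted p 0.0114 in edgeR) therefore followed partly from the filter. Mutant over empty vector was not called (adjusted p 0.171 in edgeR). The part of Mpo in the results was not tested. The erythroid progenitor markers summed to 2968 to 3154 CPM with the mutant, 3850 to 4267 CPM with the wildtype, against 2930 to 3088 CPM with the empty vector. The sum hides members that moved in opposite directions. Of the 9 tested, 4 were called higher and 2 lower with the wildtype than with the empty vector in edgeR, against 11.4% and 11.9% of all tested genes. Tal1 is 1 of the 4, at an adjusted p of 0.0495, and its call was lost in 12 of 18 alternatives. Tfrc averaged 1909 CPM with the wildtype, against 1072 CPM. Kit fell to 248 CPM, against 660 CPM, and Myb to 37.1 CPM, against 82.0 CPM. Within the mutant group, replicates 1 and 2 were much more alike than other pairs. Their scaled chi-square per gene was 2.28, above the value near 1 that sampling noise gives, and the other 8 pairs within groups ranged from 17.6 to 65.8. Each was kept as a library, and calls named below that were lost when their counts were summed are marked as such.

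Human GATA1 RNA was abundant in both groups that received it and nearly absent with the empty vector. It stood at 653, 706 and 598 CPM of the library total in mutant replicates 1, 2 and 3, and at 816, 715 and 921 CPM in wildtype replicates 1, 2 and 3. The empty vector libraries held 0, 2 and 0 counts, where a count of 0 allows up to 0.22 CPM in replicate 1 and 0.199 CPM in replicate 3. The highest mutant library lay just below the lowest wildtype library. Over the group, the mutant level was 13971 times that of the empty vector (counting interval 3867 to 115364) and the wildtype level 17449 times (4830 to 144086). Without empty vector replicate 2 the group has no count, and against a floor of 3 counts over the group the levels were at least 6262-fold and 7820-fold higher.

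The mutant transgene was somewhat less abundant than the wildtype transgene. Mean levels on library totals were 653 ± 53.9 CPM for the mutant and 817 ± 103 CPM for the wildtype (SD, n = 3 each). On totals scaled by TMM, the normalization used throughout, they were 635 ± 59.2 and 853 ± 65.9 CPM. On that TMM scale the log2 fold change of mutant over wildtype was -0.43 ± 0.14 (SE), with an adjusted p of 0.0457 in edgeR's quasi-likelihood test. This call was marginal. It was lost without any 1 of the 6 mutant and wildtype libraries, with adjusted p-values from 0.0525 to 0.143 in those fits, and with library totals as the only scaling (log2 fold change -0.32, adjusted p 0.122) or mutant replicates 1 and 2 summed (-0.46, adjusted p 0.101), where all alternatives ran from 0.00166 to 0.143. Scaled by library totals, the median gene lay 0.10 higher in the mutant on the log2 scale, and relative to that median the difference was -0.42, as it was with the normalization used throughout. The exact two-sided permutation test gave 0.1, the smallest p that 3 against 3 libraries allow.

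**Figure D1:**
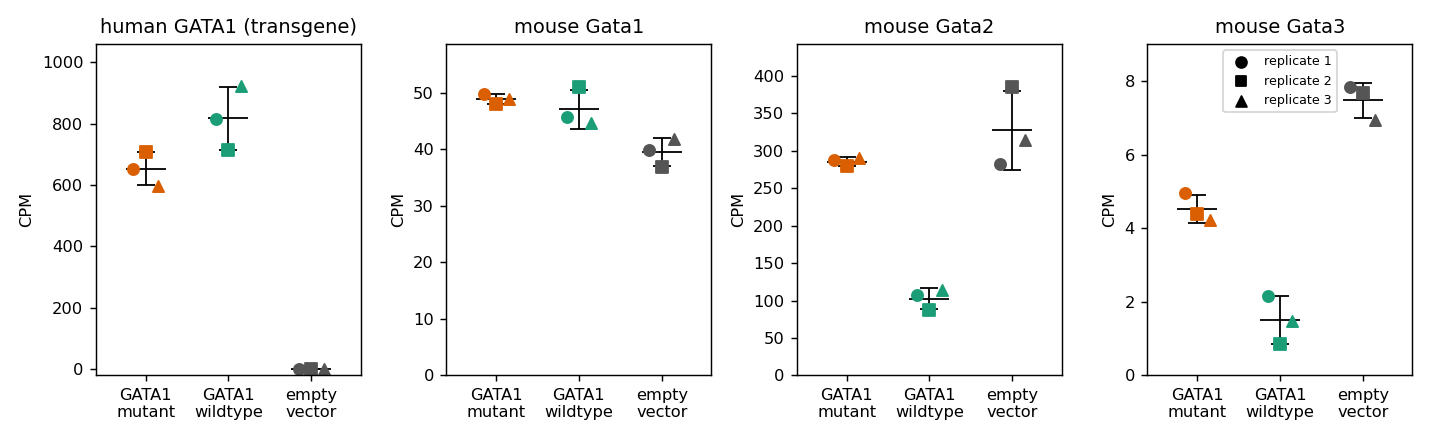
Level of each GATA row in CPM (vertical axes) for the GATA1 mutant, GATA1 wildtype and empty vector groups, with 1 symbol per library and bars for mean ± SD (n = 3). Human GATA1 is scaled to library totals and the mouse genes to TMM-scaled totals; the 3 wildtype libraries lie below all others for Gata2 and Gata3.

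Mouse Gata1 RNA was present in every library although the gene is disrupted in this line. The gene lies on the minus strand of chromosome X, 7959260 to 7978071. Its row held 49.7, 48.0 and 48.9 CPM in mutant replicates 1, 2 and 3, 45.7, 51.0 and 44.6 CPM in wildtype replicates 1, 2 and 3, and 39.9, 36.9 and 41.8 CPM in empty vector replicates 1, 2 and 3. Every library with a transgene exceeded every empty vector library, while mutant and wildtype overlapped.

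The Gata1 difference did not pass the test against the empty vector for either form. The log2 fold change was 0.25 ± 0.12 for wildtype over empty vector (95% interval -0.0013 to 0.503, adjusted p 0.139 in edgeR) and 0.30 ± 0.12 for mutant over empty vector (0.0543 to 0.555, adjusted p 0.354). Mutant over wildtype was 0.05 ± 0.12 (-0.197 to 0.304, adjusted p 0.763). Non-overlapping groups were found for 32.6% of all tested genes with the wildtype and for 15% with the mutant. The excess over the empty vector mean was 8.44 to 10.2 CPM in mutant libraries and 5.01 to 11.4 CPM in wildtype libraries. That is 1.22% to 1.62% and 0.546% to 1.45% of the human GATA1 level of the same library, with both rows on TMM-scaled totals. Human and mouse GATA1 are close homologs, and whether transgene reads were assigned to the mouse row was not tested.

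Gata2 fell with wildtype GATA1 and kept a level near that of the empty vector with the mutant. Its level was 107, 86.7 and 114 CPM in wildtype replicates 1, 2 and 3, against 283, 385 and 314 CPM in empty vector replicates 1, 2 and 3. Every wildtype library was lower than every empty vector library. Gata2 was 3.19-fold lower with wildtype GATA1 (95% interval 2.58 to 3.93), a log2 fold change of -1.67 ± 0.14 (SE) with an adjusted p of 2.88e-06 in edgeR. In that comparison 11.9% of the 9979 tested genes were called lower, and 134 had a lower log2 fold change than Gata2.

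With the mutant, Gata2 stood at 288, 279 and 290 CPM in replicates 1, 2 and 3. Replicates 1 and 3 lay within the range of the empty vector libraries and replicate 2 just below the lowest of them. The log2 fold change of mutant over empty vector was -0.20 ± 0.14, with an interval from -0.491 to 0.0983 and an adjusted p of 0.526 in edgeR. The interval covers levels from 71.1% to 107% of the empty vector level, so it leaves room for a modest fall. A mean of 286 ± 5.58 CPM with the mutant faced 103 ± 14.2 CPM with the wildtype, against 327 ± 52.3 CPM with the empty vector (SD, n = 3 each). The direct test of mutant over wildtype gave a 2.78-fold higher level (95% interval 2.25 to 3.43) with an adjusted p of 1.04e-05 in edgeR, in a comparison where 13.2% of tested genes were called higher and the groups did not overlap for 44.2%.

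Gata3 was a low-abundance transcript with the same order of groups. It held 2.16, 0.866 and 1.49 CPM in wildtype replicates 1, 2 and 3 (27, 9 and 17 counts), against 7.84, 7.68 and 6.95 CPM in empty vector replicates 1, 2 and 3 (107, 110 and 108 counts). The counting intervals at 95% were widest in relative terms for wildtype replicate 2, from 0.396 to 1.64 CPM, and none of the wildtype intervals reached an empty vector interval. Gata3 was 4.87-fold lower with wildtype GATA1 (95% interval 3.28 to 7.24), a log2 fold change of -2.28 ± 0.26 with an adjusted p of 4.3e-05 in edgeR. In that comparison 42 tested genes had a lower log2 fold change. All 3 wildtype libraries were above the filter's limit of 0.714 CPM, so Gata3 was not tested merely because the empty vector was higher.

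With the mutant, Gata3 lay between the other groups, at 4.97, 4.4 and 4.22 CPM in replicates 1, 2 and 3 (88, 73 and 65 counts). None of these values overlapped either the wildtype or the empty vector group. The mutant group did not overlap the empty vector for 15% of all tested genes or the wildtype for 44.2%. The mutant mean of 4.53 ± 0.392 CPM was 60.5% of the empty vector mean of 7.49 ± 0.478 CPM (SD, n = 3 each), and the log2 fold change was -0.72 ± 0.22 (95% interval -1.21 to -0.238). This difference did not pass, with an unadjusted p of 0.00675 and an adjusted p of 0.302 in edgeR. In that comparison 29 tested genes, or 0.291%, were called in either direction, 0.23% higher and 0.0601% lower, and 1 of them was the human GATA1 row itself. Adjusted p-values over the alternatives ran from 0.072 to 0.89. Mutant over wildtype was called, at 2.95-fold higher (95% interval 1.97 to 4.42) with an adjusted p of 0.00118.

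**Figure D2:**
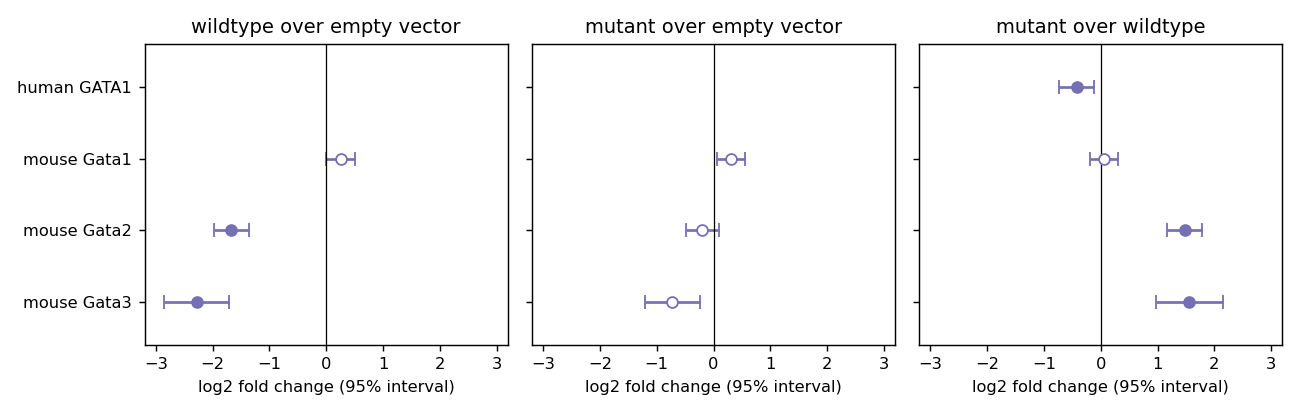
Log2 fold change with its 95% interval (horizontal axis) for each GATA row in wildtype over empty vector, mutant over empty vector and mutant over wildtype, with filled points for an edgeR adjusted p under 0.05. Human GATA1 is drawn only for mutant over wildtype, because a fitted fold against libraries with 0 to 2 counts has no stable value; Gata2 and Gata3 are filled on the left and right and open in the middle.

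The level of Gata2 per kilobase of exon was the highest of the mouse members with the mutant and with the empty vector. On that scale Gata2 had 52.9 ± 1.03 CPM per kb, Gata1 20.0 ± 0.356 and Gata3 1.14 ± 0.0986 with the mutant, and with the empty vector Gata2 had 60.6 ± 9.69, Gata1 16.2 ± 1.01 and Gata3 1.88 ± 0.12 (SD, n = 3). With wildtype GATA1, Gata2 at 19.0 ± 2.64 CPM per kb and Gata1 at 19.3 ± 1.40 did not differ beyond their spread, and Gata3 was at 0.378 ± 0.162. No length was available for the human cDNA in the vector, so the human row is not placed in this order. The ratio of human GATA1 counts to Gata2 counts was 2.22, 2.48 and 1.98 in mutant replicates 1, 2 and 3 and 7.96, 9.08 and 8.06 in wildtype replicates 1, 2 and 3.

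By the order of libraries, the transgene level within a group did not run with Gata2 in a single way. In the wildtype group the library with the most transgene, replicate 3, also had the most Gata2, and replicate 2 had the least of both. In the mutant group the order was opposite, with the least Gata2 in replicate 2, which had the most transgene, and the most Gata2 in replicate 3, which had the least. The counting intervals of Gata2 overlapped among all 3 mutant libraries, so this order is not resolved. In the wildtype group the interval of replicate 2 lay below the others, and those of replicates 1 and 3 overlapped. Gata3 was highest in replicate 1 of both the mutant and the wildtype group, the library with the middle transgene level, but its counting intervals overlapped within each of these groups. The libraries form 3 clusters of 3, so no correlation of the transgene with Gata2 or Gata3 was computed, and orders of 3 libraries are a description.

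The closest mutant and wildtype libraries in transgene level were both replicate 2, at 706 CPM for the mutant and 715 CPM for the wildtype of library totals. Gata2 was at 279 CPM in that mutant library and 86.7 CPM in that wildtype library, a ratio of 3.22, and Gata3 at 4.4 and 0.866 CPM, a ratio of 5.08. With TMM scaling the transgene stood at 692 CPM in the mutant library and 787 CPM in the wildtype library, so the match in level depends on the scaling. This is 1 library of each kind and has no test.

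**Figure D3:**
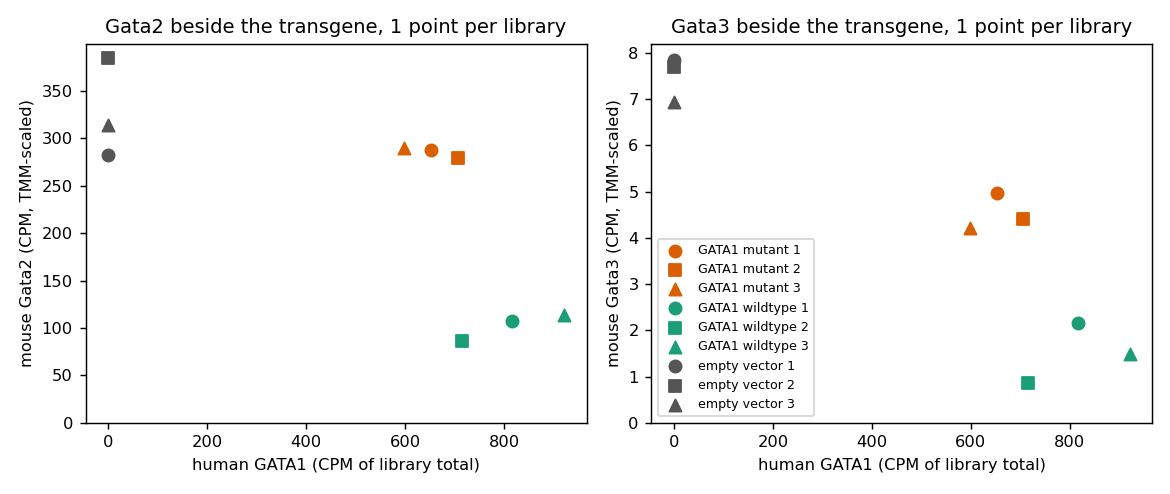
Gata2 (left) and Gata3 (right) in CPM of the TMM-scaled total (vertical axes) beside human GATA1 in CPM of the library total (horizontal axes), with 1 point per library. Mutant libraries at 598 to 706 CPM of transgene hold 279 to 290 CPM of Gata2, and wildtype libraries at 715 to 921 CPM hold 86.7 to 114 CPM.

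The other genes of the GATA zinc finger family had no or few counts or did not pass the test. Gata4, Gata5 and Gata6, which act in heart, gut and other endoderm and mesoderm tissues, had no count in any library, and neither had Trps1, a GATA-type repressor of bone and hair development. Each 0 allows up to 3 counts per library, or 0.169 to 0.289 CPM. Zglp1, a germ cell GATA-like factor, had 20 counts over the mutant libraries, 17 over the wildtype libraries and 12 over the empty vector libraries and was not tested. Gatad2a and Gatad2b, subunits of the nucleosome remodelling complex NuRD, and Gatad1 were tested, and none was called in any comparison by edgeR or passed an unadjusted p of 0.05 against the empty vector. Gatad2b had a mutant over wildtype log2 fold change of 0.44 and an adjusted p of 0.109.

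Annotated neighbours of the members did not share a common pattern. Hdac6, a cytoplasmic deacetylase gene 11371 bases from Gata1 on the same strand, averaged 11.9 ± 1.12 CPM with the wildtype, against 19.5 ± 4.42 CPM with the empty vector (SD, n = 3), a log2 fold change of -0.72 ± 0.18 with an adjusted p of 0.012 in edgeR. Leaving out wildtype replicate 1 or empty vector replicate 2 removed that call, with adjusted p-values up to 0.0712 over the alternatives. Rpn1, a subunit of the oligosaccharyltransferase and the protein-coding gene before Gata2, had a log2 fold change of -0.08 ± 0.11 for wildtype over empty vector. Taf3, a subunit of the general transcription factor TFIID on the far side of Gata3, had -0.10 ± 0.15. Celf2, an RNA-binding protein gene 2347515 bases from Gata3 and its nearest coding neighbour on the other side, fell to 1.33 ± 0.344 CPM with the wildtype, against 7.20 ± 2.25 CPM with the empty vector (log2 fold change -2.44 ± 0.30, adjusted p 7.31e-05). Of the 3 annotated genes that overlap Gata3, the antisense Gm13256 and 4930412O13Rik had no count. In this unstranded assay a 0 in their rows cannot show whether reads of theirs were counted under Gata3, which was not tested. The other overlapping gene, 9230102O04Rik, had 17 counts with the mutant, 7 with the wildtype and 19 with the empty vector.

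By Pearson's r of log2 CPM over all 9 libraries, among 8060 tested genes that averaged 5 CPM or more, the genes most like Gata2 included Papss2, Ptpre, Aplp2 and Msn, with r from 0.989 to 0.993. Papss2, an enzyme of sulfate activation, was at 31.3 ± 1.62 CPM with the mutant, 7.65 ± 1.10 CPM with the wildtype, against 32.9 ± 2.92 CPM with the empty vector (SD, n = 3). Msn, the cytoskeletal linker moesin, was at 728 ± 12.9, 418 ± 42.1 and 740 ± 58.1 CPM with the mutant, the wildtype and the empty vector. These 4 genes were lower with the wildtype than with the empty vector in edgeR, as were 11.9% of all tested genes. Aplp2, a relative of the amyloid precursor protein, had a log2 fold change of -0.63 ± 0.11. The 4 genes were chosen for likeness to Gata2, which itself fell, so their fall followed from the choice and is no separate result.

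The genes most like Gata3 were Morc4, Agk, Pkp2, Ly75 and Supt20, with r from 0.965 to 0.982. Ly75, the endocytic receptor DEC-205, was at 17.2 ± 1.18 CPM with the mutant, 8.20 ± 0.908 CPM with the wildtype, against 24.6 ± 3.47 CPM with the empty vector, with its mutant mean between the other means. Gata2 and Gata3 had an r of 0.949 with each other. The genes most like mouse Gata1 were Agpat4, Relt, Gna15, Tnpo2 and Dgkq, with r from 0.875 to 0.889. Agpat4, an acyltransferase of phospholipid synthesis, was at 51.3 ± 2.91 CPM with the mutant, 52.8 ± 7.02 CPM with the wildtype, against 31.2 ± 2.73 CPM with the empty vector. The 9 libraries share 3 group means, so these values mostly rank likeness of group differences. Over the 6 libraries with a transgene the top 5 shared 0 genes with these for Gata3 and 1 for Gata1. For Gata2 the top 5 shared 1 as well, which was not among the 4 genes named above. Those 4 ranked from 7 to 60 over the 6 libraries.

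Genes known to be raised by GATA1 rose with the wildtype and partly with the mutant. Of 20 such genes, listed with earlier results of these data known, 19 were tested. Because of that choice, counts of the list beside all tested genes describe it and are no independent test. All 19 rose with wildtype GATA1 over the empty vector, where 11.4% of tested genes were called higher. With the mutant 6 rose, namely Slc4a1, Alas2, Hbb-bs, Hbb-bt, Hba-a1 and Hba-a2, against 0.23% of tested genes. The count was 3 without empty vector replicate 2, 4 without empty vector replicate 1 or mutant replicate 2, 4 with mutant replicates 1 and 2 summed (Hba-a1 and Hba-a2 were lost) and 9 without empty vector replicate 3, and the paralogous globin rows may share reads. In the fit without empty vector replicate 3, 229 of all tested genes were called higher. All 19 were lower with the mutant than with the wildtype, where 12.7% of tested genes were called lower. The median log2 fold change of the list was 2.69 for the wildtype and 0.31 for the mutant over the empty vector, against -0.04 and 0.00 over all tested genes. Slc4a1, the band 3 anion exchanger, was at 200.2 ± 17.7 CPM with the mutant, 1440 ± 216 CPM with the wildtype, against 16.7 ± 2.03 CPM with the empty vector (SD, n = 3).

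Genes linked to GATA2 in progenitors and mast cells mostly fell with the wildtype. Of 18 such genes, also listed with earlier results of these data known, 13 were tested. Of these 8 fell and 1 rose with the wildtype, where 11.9% of all tested genes were called lower and 11.4% higher. Ms4a2 is 1 of the 8, and only its empty vector libraries all reached the low-count filter's limit. Its fall therefore followed partly from the filter. Cpa3, a mast cell carboxypeptidase, fell to 3.87 ± 0.556 CPM, against 31.3 ± 3.03 CPM with the empty vector (log2 fold change -3.01 ± 0.18, adjusted p 1.41e-07). Kit, the receptor for stem cell factor, fell to 248 ± 11.7 CPM with the wildtype, against 660 ± 66.1 CPM with the empty vector. Il1rl1, the interleukin 33 receptor (-1.88 ± 0.15), and Hhex, a progenitor homeobox factor (-1.54 ± 0.14), fell as well, and Samd14, a GATA2-activated gene of SCF signalling, rose (0.70). The list's median was -1.14 for the wildtype, against -0.04 over all genes.

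With the mutant 2 of these 13 genes fell, Cpa3 and Ms4a2, in a comparison where 0.0601% of tested genes were called lower. Ms4a2 passed the low-count filter only through the empty vector group, so its fall followed partly from the filter and is no separate result. Cpa3 stood at 11.7 ± 1.65 CPM (log2 fold change -1.43 ± 0.16, adjusted p 0.00117) and was called under all 18 alternatives. Ms4a2, the beta chain of the IgE receptor of mast cells, had 7 counts with the mutant and 74 with the empty vector, and its call was lost without any 1 of mutant replicates 1, 2 and 3, wildtype replicate 1 or empty vector replicates 1 and 2, or with mutant replicates 1 and 2 summed, which left 1 call in the list. Without empty vector replicate 3 there were 4 falls and 1 rise, in a fit where 610 of all tested genes were called lower and 229 higher. Kit was at 602 ± 43.4 CPM with the mutant (adjusted p 0.599) and Il1rl1 at 67.0 ± 2.87 CPM (adjusted p 0.168 in edgeR). Of the 13, 6 were higher with the mutant than with the wildtype and 0 were lower in edgeR and in DESeq2 (1 without empty vector replicate 1 or 3). Of all tested genes 13.2% were called higher and 12.7% lower in that comparison. An unadjusted p under 0.05 was reached by 8 of the 13, against 3899 of all 9979 tested genes.

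**Figure D4:**
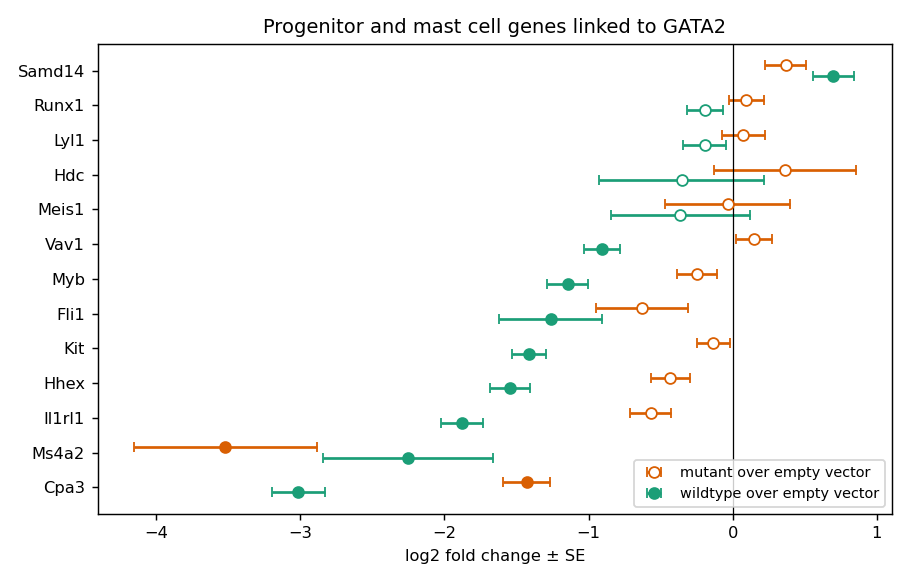
Log2 fold change ± SE (horizontal axis) of the 13 tested progenitor and mast cell genes linked to GATA2, for the mutant over the empty vector (upper point) and the wildtype over the empty vector (lower point), with filled points for an edgeR adjusted p under 0.05. The 2 comparisons share the empty vector libraries; 8 genes are filled below 0 for the wildtype, and Cpa3 and Ms4a2 for the mutant.

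The partners through which GATA factors act changed in both directions. Of 23 tested partners and cofactors 4 rose and 3 fell with the wildtype over the empty vector, near the shares of all tested genes (11.4% higher and 11.9% lower). Klf1, the erythroid Kruppel-like factor, rose to 614 ± 55.8 CPM with the wildtype, against 260 ± 28.6 CPM with the empty vector. Ldb1, which bridges distant GATA1 sites, rose by a log2 fold change of 0.95 ± 0.14, and Ssbp2, which stabilises Ldb1, by 0.46 ± 0.10. Tal1, the basic helix-loop-helix partner in the same complex, was called at an adjusted p of 0.0495, with a range from 0.0226 to 0.216 over 18 alternatives, 12 of which ended the call. Among these were the fit with mutant replicates 1 and 2 summed and those that left out any mutant library, wildtype replicate 1, wildtype replicate 2, empty vector replicate 1 or empty vector replicate 2. The falls, of Lmo4, Fli1 and Chd4, were each lost in the fits that left out wildtype replicate 1, wildtype replicate 2 or empty vector replicate 2. Zfpm1, the cofactor FOG1 that binds the amino-terminal finger of GATA1, had 0.05 ± 0.22 for the wildtype and 0.35 ± 0.22 for the mutant.

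No partner was called with the mutant over the empty vector in edgeR, where 8 had an unadjusted p under 0.05 and DESeq2 called 0. Of all 9979 tested genes 0.291% were called and 1284 had an unadjusted p under 0.05. Without empty vector replicate 3, however, 3 rose and 1 fell, in a fit where 229 of all tested genes were called higher and 610 lower. Between mutant and wildtype, 2 partners were higher and 4 lower with the mutant, near the share of all tested genes called in that comparison (25.9%). Chd4, the ATPase of NuRD, was at 234 ± 20.7 CPM with the mutant and 125 ± 17.3 CPM with the wildtype (SD, n = 3 each; log2 fold change 0.90 ± 0.15, adjusted p 0.000863), and Cbfa2t3, the corepressor ETO2, at 103 ± 2.11 and 61.3 ± 7.80 CPM. Klf1, Ldb1, Ssbp2 and Lmo2 were the lower ones, and the call of Lmo2 was lost without mutant replicates 1, 2 or 3 or wildtype replicates 1 or 3, or with mutant replicates 1 and 2 summed. With replicate number as a block, fitted to the 6 mutant and wildtype libraries, 6 partners were higher, as were 2326 of all tested genes. Without wildtype replicate 3 there were 4 partners higher. Over the fits that left out 1 library, 694 to 1581 of all tested genes were higher.

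T cell markers were mostly absent beside Gata3. Of 20 markers of T cells and type 2 lymphoid cells 11 had no count in any library, among them Cd3e, Cd4, Cd8a, Tcf7, Bcl11b and Zap70. Their summed level was 20.6 to 23.2 CPM with the mutant, 25.7 to 33.6 CPM with the wildtype, against 20.7 to 24.8 CPM with the empty vector, and so did not run with Gata3. The detected sum came largely from Il4, Lck and Lat. Lat, an adaptor also used by mast cells, fell to 1.36 ± 0.482 CPM with the wildtype, against 5.61 ± 0.198 CPM with the empty vector (adjusted p 0.000125 in edgeR), while Il4, a cytokine of type 2 cells, rose to 19.1 ± 3.05 CPM, against 11.6 ± 1.89 CPM (adjusted p 0.00928), a call lost without empty vector replicate 2 at 0.0557 (range 0.000792 to 0.0557). Lck, a T cell kinase, was at 7.46 ± 1.56 CPM with the wildtype, against 4.45 ± 0.785 CPM with the empty vector, and its call (adjusted p 0.0429 in edgeR, range 0.0213 to 0.164) did not hold when mutant replicate 2, wildtype replicate 1, wildtype replicate 2, empty vector replicate 1 or empty vector replicate 2 was left out.

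The number of genes called over the whole table, against which the members are read, depended on single libraries. For wildtype over empty vector 1138 genes were higher and 1186 lower (23.3% of tested genes). Leaving out empty vector replicate 2 gave 730 higher and 706 lower, and leaving out wildtype replicate 1 gave 655 lower. For mutant over empty vector 23 were higher and 6 lower, with 1284 at an unadjusted p under 0.05. Those counts were 229 and 610 without empty vector replicate 3, 9 and 3 without replicate 1 and 6 and 2 without replicate 2, 12 and 3, 10 and 2 and 14 and 3 without mutant replicates 1, 2 and 3; the fit that left out wildtype replicate 3 had 12 lower. For mutant over wildtype 1313 were higher and 1268 lower. Without mutant replicate 1 the counts were 694 and 778, without mutant replicate 2 they were 794 and 779, and there were 758 and 869 higher without wildtype replicates 1 and 2. Blocking those 6 libraries on replicate number gave 2326 higher and 2416 lower. Library totals as the only scaling moved the share of called genes that were higher to 37.3%, against 49.0%, for wildtype over empty vector, and to 66.5%, against 50.9%, for mutant over wildtype.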

How the data were processed

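RNA was measured in 9 G1E libraries, 3 per group, grouped by the sample labels; total RNA was amplified by Smart-seq2 and indexed with a Nextera-based kit, per the labels' protocols. The authors deposited 1 table of raw gene counts, with 27998 mouse rows and 1 human row. STAR was the aligner and the builds were GRCm38.p4 and hg19, per the submitters' processing notes; the sources used here do not give the counting tool, annotation, strand setting or treatment of reads that match several genes. Smart-seq2 keeps no strand, so a gene and its antisense partner cannot be told apart.

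Counts were tested with edgeR 4.0.16 (limma 3.58.1, R 4.3.3) with TMM factors, filterByExpr and a quasi-likelihood fit of 1 mean per group to all 9 libraries; p-values were adjusted by Benjamini-Hochberg over 9979 genes, and an adjusted p under 0.05 was a call. SE was taken as the size of the log2 fold change divided by the root of F, and 95% intervals follow from it. CPM used TMM-scaled totals, except for human GATA1 in group values (library totals); log2 CPM used a prior count of 2. Exact counting intervals and floors of 3 counts cover counting error only, since reads carry no molecular identifiers. DESeq2 1.42.0 and other settings were alternatives. The test was checked on simulated counts.

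Replicates are called biological by the series, but nothing names separate cultures, so p-values reflect only how these libraries varied, which may be technical. Mutant and wildtype libraries of the same number deviated alike from their group means (r of 0.341, 0.485 and 0.706 over 8337 genes for numbers 1, 2 and 3). Numbers 1 and 2 were not told apart, since mutant 1 with wildtype 2 had 0.39 and mutant 2 with wildtype 1 had 0.377. Wildtype 3 with empty vector replicate 2, of another number, reached 0.655. Such values therefore do not show that the numbers pair libraries. Empty vector libraries had r from -0.628 to -0.378 with the same number in the other groups.

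Coordinates and exon lengths are those of GENCODE M21 (GRCm38) and promoter sequences those of RefSeq (GRCm38.p6), where all 3 mouse members matched. The members, the gene lists and the rule for named genes (the members, the GATA family, the 5 genes most like each mouse member, coding neighbours and overlapping genes, and list members with the smallest p) were chosen with earlier results of these data known. Some list members are given beyond that rule, to describe their list, and were chosen after their values were seen. One gene that the likeness rule names is not reported here.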

Additional observations from a re-analysis of the deposited data

How the results depend on the processing

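The calls of Gata2 and Gata3 for wildtype over empty vector and for mutant over wildtype held under every alternative run, with log2 fold changes from -1.77 to -1.54 and 1.37 to 1.58 for Gata2 and from -2.62 to -2.03 and 1.30 to 1.92 for Gata3. Mouse Gata1 in 3 comparisons, and Gata2 and Gata3 for mutant over empty vector, were not called under any. The human GATA1 difference between mutant and wildtype lost its call with library totals (-0.32), with the replicate block in all 9 libraries (-0.43), with mutant replicates 1 and 2 summed (-0.46) and without any 1 mutant or wildtype library; the cause was not tested. It kept its call without any 1 empty vector library, and the 9 fits that left out 1 library ran from -0.49 to -0.36.

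Leaving out 1 library gave 730 to 1615 genes higher and 655 to 1642 lower for wildtype over empty vector, 6 to 229 and 2 to 610 for mutant over empty vector, and 694 to 1581 and 778 to 1574 for mutant over wildtype. For mutant over empty vector there were 120 higher and 296 lower with no low-count filter, 64 and 39 with DESeq2, 14 and 2 with the replicate block and 10 and 2 with mutant replicates 1 and 2 summed. For mutant over wildtype the summed library gave 780 and 772, and the replicate block in the 6 libraries, chosen after seeing the data, gave 2326 and 2416. That fit called the same members in the same direction.

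Of the partners, leaving out 1 library gave 0 to 4 falls for the wildtype and 0 to 3 rises and 0 to 1 falls for the mutant over empty vector, and 2 to 4 higher for mutant over wildtype. No low-count filter gave 1 rise with the mutant; mutant over wildtype had 4 higher with library totals, 4 with no filter, 3 with the block in all 9 libraries and 6 with the 6-library block. Of the progenitor genes with the mutant, leaving out 1 library gave 0 to 1 rises and 1 to 4 falls, and there was 1 fall with the filter of 5 CPM in 3 libraries, with the block and with the summed library. For mutant over wildtype 1 was lower with only the 2 groups fitted, 1 with the 6-library block and 0 to 1 with 1 library left out. Of the GATA1-induced genes 3 to 9 rose with the mutant with 1 library left out.

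Spearman's rho kept 0 of the 5 genes most like Gata2, 2 for Gata3 and 3 for Gata1. Depth limits Gata3 most, with 9 to 27 counts per wildtype library.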
